A study of Comephorus dybowskii and Comephorus baikalensis and Batrachocottus nikolskii with 4 samples.

Results

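Cytosolic ribosomal proteins were examined in skeletal muscle of 4 Lake Baikal sculpin species, among the identifiers whose protein titles all name a ribosomal protein of the cytosol. An identifier is a name given by the Trinity assembler, and its titles are the best protein matches, found in other species, of the contigs it carries. The species were assembled separately and then joined, so an identifier is not shown to be 1 gene. A change of identifier between species is therefore not shown to be a change of gene. Of the 792 identifiers in the normalized tables, 45 had such titles and no other (11 of the small subunit, 33 of the large subunit and 1, DN1424_c0_g1, with the titles of S26 and L15). They name 28 proteins. DN1424_c0_g1 was left out of the count of identifiers per protein and of sums per protein over unmixed identifiers. Without it, 13 of these proteins are named by at least 2 identifiers, which make up 29 of the 45. A further 48 identifiers carry a cytosolic ribosomal protein title beside a title of another form. Whether that other title names an unrelated protein or is a newer ribosomal name was not checked. Outside these, 8 use the newer names of ribosomal proteins and 6 name ribosomal proteins of mitochondria.

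The cytosolic ribosome translates messenger RNA into protein. Its small subunit holds the messenger RNA and reads the codons, and its large subunit joins the amino acids and carries a flexible stalk, built from the acidic proteins P0, P1 and P2, that recruits elongation factors. Each protein of the core is needed in equal numbers per ribosome, and the messenger RNAs of these proteins are abundant in most tissues.

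The pelagic genus *Comephorus* was represented by *C. dybowski* and *C. baicalensis*, and the benthic-abyssal genus *Batrachocottus* by *B. nikolskii* and *B. multiradiatus*. The fish were caught by trawl in Lake Baikal, and no treatment was applied. Each species gave 1 library, a pool of muscle RNA from 15 individuals per the labels, while the study's methods give other numbers of fish per pool. No spread within a species was therefore measured, the 2 species of a genus stand as its samples, and genus, habitat and ancestry cannot be told apart. In bulk muscle RNA, fewer cells of a type and less RNA per cell cannot be told apart either.

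The 4 libraries held 54508410 to 59156409 counts over the identifiers listed. Markers of the labelled tissue were abundant in every library: skeletal muscle titles (troponins, myosins, tropomyosin, skeletal actin, parvalbumin, creatine kinase M) summed to 216480 and 201619 CPM in *C. dybowski* and *C. baicalensis*, and to 136952 and 200720 CPM in *B. nikolskii* and *B. multiradiatus*. Hemoglobin titles (9 identifiers) summed to 3382 and 3131 CPM in the *Comephorus* libraries, against 1096 and 734 CPM in the *Batrachocottus* libraries, and keratin titles (7 identifiers) to 183 and 589 CPM, against 29.0 and 894 CPM. Titles of liver or egg proteins (7 identifiers) summed to 46.6 and 168 CPM in the *Comephorus* libraries, against 1551 CPM in *B. nikolskii* and 132 CPM in *B. multiradiatus*. The only perilipin identifier, a marker of fat cells, lay between 0.488 and 70.5 CPM. The part of these other cell types in the differences below was not tested. CPM are read counts per TMM-adjusted library size, and they are not divided by length, so levels are compared between libraries and never between proteins.

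The 45 identifiers were far apart between the genera, and in both directions. By limma on log2(CPM + 1), with an adjusted p (Benjamini-Hochberg over all 792 identifiers) under 0.05, 10 of 45 were higher in *Comephorus*, where 30.1% of all identifiers were, and 16 were higher in *Batrachocottus*, where 24.0% of all were. The other 19 were not called. With all 4 libraries, 30 of the 45 had an unadjusted limma p under 0.05, against 486 of all 792. No limma call, on these or on any other identifiers, held with either *Comephorus* library or that of *B. nikolskii* left out. When *B. multiradiatus* was left out the counts were again 10 and 16. The median over the 45 differences was -2.80 (log2, *Comephorus* minus *Batrachocottus*), against 1.40 over all 792 identifiers, and the median size of the difference was 5.38 against 4.07. The values of both *Comephorus* libraries exceeded those of both *Batrachocottus* libraries for 15 identifiers (44.6% of all identifiers did) and were below them for 22 (39.9% of all), and the ranges overlapped for 8. The normalized tables hold only identifiers that the authors had called between at least 1 pair of these species, so none of these counts is independent evidence of a difference. Identifiers with a second title of another form went the other way: 21 of 48 were called higher in *Comephorus* and 7 in *Batrachocottus*, with a median of 3.40.

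**Figure D1:**
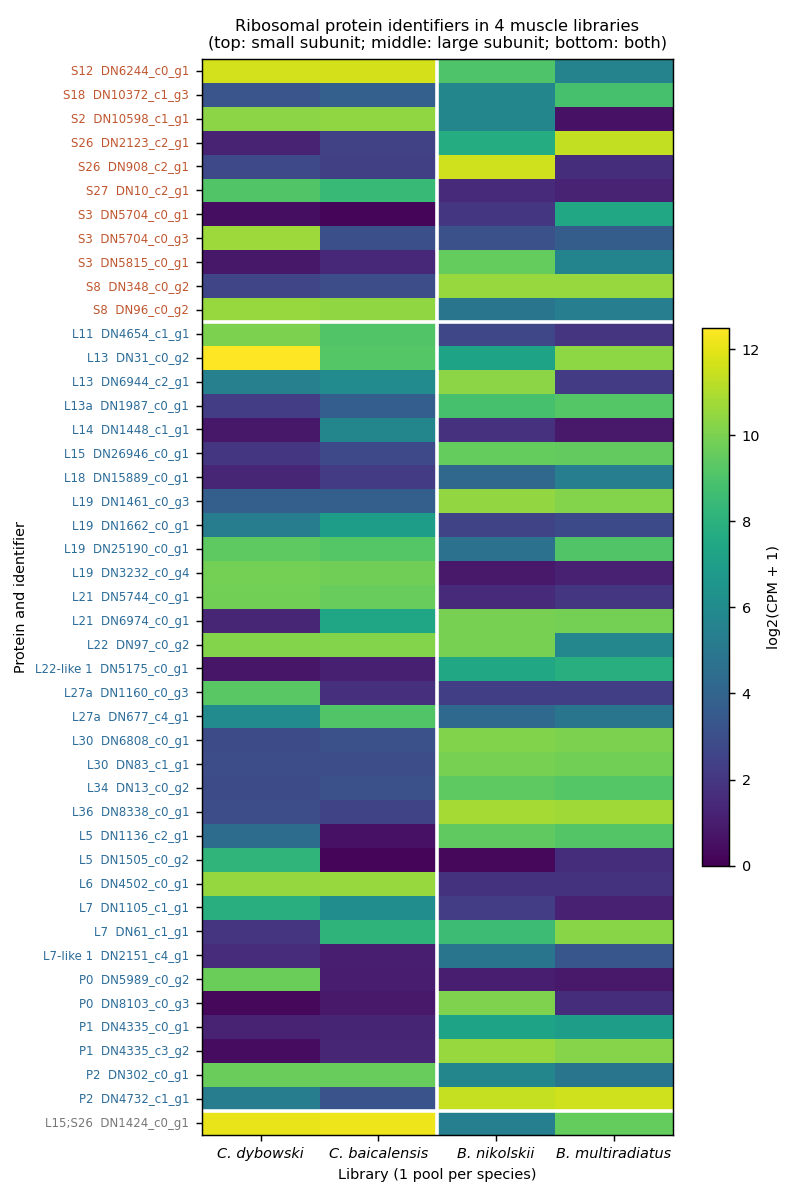
Level of each of the 45 identifiers as log2(CPM + 1) (colour) in the 4 libraries (columns), grouped by subunit and ordered by protein (rows), with small subunit proteins at the top, large subunit proteins in the middle and the identifier with titles of both at the bottom. Most rows are bright in the columns of 1 genus and dark in the other. In both *Comephorus* libraries and in no other, 12 identifiers (26.7%) were within 4-fold of their highest value, against 30.8% of all identifiers. In both *Batrachocottus* libraries and in no other, 17 (37.8%) were, against 25.8% of all identifiers.

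The deposited counts cover fewer of the identifiers. Counts above the authors' limit of about 1 CPM were listed for both genera for 34 of the 45 identifiers, for *Comephorus* only for 2, for *Batrachocottus* only for 6 and for neither for 3. In edgeR's quasi-likelihood test on the 4755 identifiers listed for both genera, 7 of the 34 were higher in *Comephorus* (5.01% of all tested) and 11 were higher in *Batrachocottus* (4.21% of all tested). DESeq2 called 13 and 15 of the 34 in these directions. With unlisted identifiers set to 0, edgeR called 14 and 21 of the ribosomal identifiers then listed for either genus. For these alternatives no share over all identifiers was taken, so the counts do not show whether ribosomal identifiers stand out. The median difference of the 34 was -2.99, against -0.03 over all 4755. In the full edgeR fit, 27 of the 34 had an unadjusted p under 0.05, against 1442 of all 4755. The 34 are among the identifiers that the authors had already called between species, while the 4755 were not chosen in this way. Their higher shares were therefore set by that choice and are no evidence about ribosomal proteins. No edgeR call, on these or on any other identifiers, held without *B. nikolskii* or without *B. multiradiatus*.

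Among small subunit identifiers, 3 of 11 were called higher in *Comephorus* by limma (30.1% of all 792 identifiers were), 3 in *Batrachocottus* (24.0% of all) and 5 in neither. S27, a zinc-binding protein whose identifier carries the title S27-like (DN10_c2_g1), was at 547 and 354 CPM in *C. dybowski* and *C. baicalensis*, against 1.77 and 1.33 CPM in *B. nikolskii* and *B. multiradiatus*. It was high in both pelagic pools and under 2 CPM in both benthic ones, a difference of 7.44 ± 0.75 on the log2 scale (SE, limma adjusted p = 0.013). S2, which lines the entry of the messenger RNA channel, was at 1294 and 1361 CPM in *Comephorus* (DN10598_c1_g1), against 51.9 and 0.539 CPM in *Batrachocottus*. Its difference was 7.20 ± 1.95 (SE, limma adjusted p = 0.041), and the 2 benthic libraries were themselves far apart. S12 (DN6244_c0_g1) was at 3147 and 3283 CPM in *Comephorus*, against 524 and 47.7 CPM in *Batrachocottus*, and did not pass (limma adjusted p = 0.065). S18 (DN10372_c1_g3), a protein of the head of the small subunit, ran the other way at 8.68 and 13.3 CPM, against 53.0 and 460.2 CPM, and did not pass either (limma adjusted p = 0.079).

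S8 was carried by a pair of unmixed identifiers that changed places between the genera. DN96_c0_g2 was at 1492 and 1347 CPM in the *Comephorus* libraries, against 27.8 and 39.5 CPM in the *Batrachocottus* libraries (5.38 ± 0.74 on the log2 scale, SE, limma adjusted p = 0.016). DN348_c0_g2 was at 5.09 and 6.77 CPM, against 1511 and 1506 CPM (-7.78 ± 0.72, SE, limma adjusted p = 0.013). Each genus thus had 1 abundant unmixed S8 identifier, and it was not the same one.

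S26, which lies at the exit of the messenger RNA channel, was carried by different identifiers in the benthic species. DN2123_c2_g1 was at 1.27 and 4.54 CPM in *C. dybowski* and *C. baicalensis*, against 211 and 2615 CPM in *B. nikolskii* and *B. multiradiatus* (-7.71 ± 1.54, SE, limma adjusted p = 0.022). Of the S26 sum over these 2 identifiers, DN908_c2_g1 held 93.6% in *B. nikolskii* and 0.0819% in *B. multiradiatus*. The reverse held for DN2123_c2_g1, with 6.35% and 99.9%. The identifier with the titles of S26 and L15 (DN1424_c0_g1) was at 4360 and 4562 CPM in *Comephorus*, against 40.6 and 732 CPM in *Batrachocottus*, and did not pass (limma adjusted p = 0.077).

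S3, a protein of the messenger RNA entry site, had 3 identifiers with a different leader in 3 of the species. DN5704_c0_g3 was at 1613 CPM in *C. dybowski* and 7.16 CPM in *C. baicalensis*, against 7.55 CPM in *B. nikolskii* and 11.8 CPM in *B. multiradiatus*. DN5815_c0_g1 was at 0.738 and 1.59 CPM in *Comephorus*, against 745 and 48.0 CPM in *Batrachocottus* (-6.49 ± 1.58, SE, limma adjusted p = 0.033). DN5704_c0_g1 was at 0.385 and 0.108 CPM, against 2.89 and 173 CPM. *C. dybowski*, *B. nikolskii* and *B. multiradiatus* thus each had their own S3 identifier, and *C. baicalensis* had none of these above 7.16 CPM. Identifiers without a title were not searched for S3, so its S3 reads may lie elsewhere.

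Among large subunit identifiers, limma called 7 of 33 higher in *Comephorus* (30.1% of all 792), 13 in *Batrachocottus* (24.0% of all) and 13 in neither. L6 (DN4502_c0_g1) was at 1464 and 1539 CPM in *C. dybowski* and *C. baicalensis*, against 2.51 and 2.61 CPM in *B. nikolskii* and *B. multiradiatus* (8.72 ± 0.71, SE, limma adjusted p = 0.013). L11, which joins the ribosome as a particle with L5 and the smallest ribosomal RNA, was at 1029 and 551 CPM (DN4654_c1_g1), against 5.22 and 2.73 CPM (7.29 ± 0.82, SE, limma adjusted p = 0.014). Both were high in the pelagic pools and low in the benthic pools.

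L36 (DN8338_c0_g1) was at 6.80 and 5.00 CPM in *Comephorus*, against 1778 and 1675 CPM in *Batrachocottus* (-7.98 ± 0.73, SE, limma adjusted p = 0.013). L30, a small RNA-binding protein, had a pair of unmixed identifiers that moved together. DN83_c1_g1 was at 6.69 and 6.85 CPM, against 967 and 900.0 CPM, and DN6808_c0_g1 at 6.29 and 7.62 CPM, against 1121 and 1056 CPM. Each held between 46.0% and 54.0% of the L30 sum in every library. L15 (DN26946_c0_g1), L34 (DN13_c0_g2), L13a (DN1987_c0_g1), L18 (DN15889_c0_g1) and L22-like 1 (DN5175_c0_g1), a paralogue of L22, were also called higher in *Batrachocottus*, with differences of -7.15, -6.34, -6.01, -3.04 and -6.73 in this order. All of these but L22-like 1 have further identifiers with a second title, and sums with them are given below. L22 itself (DN97_c0_g2), at 1145 and 1139 CPM in *Comephorus*, against 987 and 53.3 CPM in *Batrachocottus*, was not called. L7-like 1 (DN2151_c4_g1), a paralogue of L7, was at 1.964 and 1.099 CPM, against 28.2 and 9.27 CPM, and was not called (limma adjusted p = 0.065).

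L19, which contributes to a bridge between the subunits, was split over 4 unmixed identifiers. DN3232_c0_g4, with the largest difference in favour of *Comephorus* (8.83 ± 0.72, SE, limma adjusted p = 0.013), held 56.6% and 54.8% of the L19 sum of *C. dybowski* and *C. baicalensis*, against 0.0566% and 0.0700% in *B. nikolskii* and *B. multiradiatus*. DN1461_c0_g3 took its place in the benthic species, at 12.9 and 12.7 CPM in *Comephorus*, against 1395 and 1172 CPM in *Batrachocottus* (-6.53 ± 0.72, SE, limma adjusted p = 0.013). DN25190_c0_g1 was abundant in all libraries but that of *B. nikolskii*, at 682 and 582 CPM in *Comephorus*, against 25.2 and 557 CPM in *Batrachocottus*. DN1662_c0_g1 was at 36.6 and 123 CPM, against 4.91 and 6.09 CPM (3.40 ± 0.94, SE, limma adjusted p = 0.044). The unmixed L19 identifiers therefore differed in direction, and the leading one was not shared by the genera.

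L21 and L7 showed the same kind of exchange. For L21, DN5744_c0_g1 was at 925 and 780.1 CPM in *Comephorus*, against 1.84 and 2.90 CPM in *Batrachocottus* (8.00 ± 0.74, SE, limma adjusted p = 0.013). DN6974_c0_g1 was at 1.57 CPM in *C. dybowski* and 160.3 CPM in *C. baicalensis*, against 969 CPM in *B. nikolskii* and 958 CPM in *B. multiradiatus*. *C. baicalensis* thus had reads of both unmixed L21 identifiers, with 83.0% of its sum in the first and 17.0% in the second.

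For L7, DN1105_c1_g1 was at 228 and 69.3 CPM in *Comephorus*, against 3.82 and 1.23 CPM in *Batrachocottus* (5.27 ± 1.02, SE, limma adjusted p = 0.021). DN61_c1_g1 was at 2.76 CPM in *C. dybowski* and 275 CPM in *C. baicalensis*, against 383 CPM in *B. nikolskii* and 1218 CPM in *B. multiradiatus*. Here *C. baicalensis* shared its leading identifier with the benthic species and not with *C. dybowski*. It also did so for L27a, for L30 with a nearly even split and, at very low levels, for L5 and P1.

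L27a was led by DN1160_c0_g3 in *C. dybowski*, at 621 CPM in that species and 2.37 CPM in *C. baicalensis*, against 3.92 CPM in *B. nikolskii* and 4.01 CPM in *B. multiradiatus*. DN677_c4_g1 was at 63.7 CPM in *C. dybowski* and 545 CPM in *C. baicalensis*, against 18.3 and 27.5 CPM in *Batrachocottus*. For L5, DN1505_c0_g2 was at 286 CPM in *C. dybowski* and between 0.149 and 2.15 CPM in the other libraries. DN1136_c2_g1 was at 20.1 and 0.542 CPM in *Comephorus*, against 696 and 566 CPM in *Batrachocottus* (-6.78 ± 1.52, SE, limma adjusted p = 0.028). The L5 reads of *C. baicalensis* on unmixed identifiers came to less than 1 CPM.

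L13 was abundant in every library through either of its identifiers. DN31_c0_g2 was at 5760 and 583 CPM in *C. dybowski* and *C. baicalensis*, against 153 and 1321 CPM in *B. nikolskii* and *B. multiradiatus*. DN6944_c2_g1 was at 42.1 and 63.5 CPM, against 1292 and 3.46 CPM. *B. nikolskii* alone was led by DN6944_c2_g1, and neither identifier was called between the genera. L14 (DN1448_c1_g1) was at 52.7 CPM in *C. baicalensis* and at 0.734 CPM in *C. dybowski*, against 2.39 and 0.784 CPM in the *Batrachocottus* species, so that it was above 3 CPM in 1 pool only.

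The stalk proteins P0, P1 and P2 were each named by a pair of unmixed identifiers. P1 had the largest difference in favour of *Batrachocottus*: DN4335_c3_g2 was at 0.337 and 1.57 CPM in *C. dybowski* and *C. baicalensis*, against 1533 and 1204 CPM in *B. nikolskii* and *B. multiradiatus* (-9.52 ± 0.80, SE, limma adjusted p = 0.013). The second P1 identifier, DN4335_c0_g1, was at 1.30 and 1.45 CPM, against 153 and 122 CPM (-5.86 ± 0.72, SE, limma adjusted p = 0.014). Both unmixed P1 identifiers were thus high in the benthic species only. Over every identifier with the P1 title, the sums were 2271 and 2238 CPM in *Comephorus*, against 1845 and 1436 CPM in *Batrachocottus*.

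P2, the partner of P1 in the stalk, was exchanged between the genera on its unmixed identifiers. DN302_c0_g1 was at 785 and 773 CPM in *Comephorus*, against 52.5 and 27.6 CPM in *Batrachocottus* (4.32 ± 0.78, SE, limma adjusted p = 0.020). DN4732_c1_g1 was at 37.2 and 8.10 CPM, against 2692 and 3062 CPM (-7.27 ± 1.03, SE, limma adjusted p = 0.017). P0, which anchors the stalk, was abundant in 1 species of each genus by its titled identifiers, and identifiers without a title were not searched for it. DN5989_c0_g2 was at 823 CPM in *C. dybowski* and 0.957 CPM in *C. baicalensis*, against 1.08 CPM in *B. nikolskii* and 0.811 CPM in *B. multiradiatus*. DN8103_c0_g3 was at 0.193 and 0.802 CPM in *Comephorus*, against 1071 and 2.08 CPM in *Batrachocottus*. Neither was called between the genera.

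**Figure D2:**
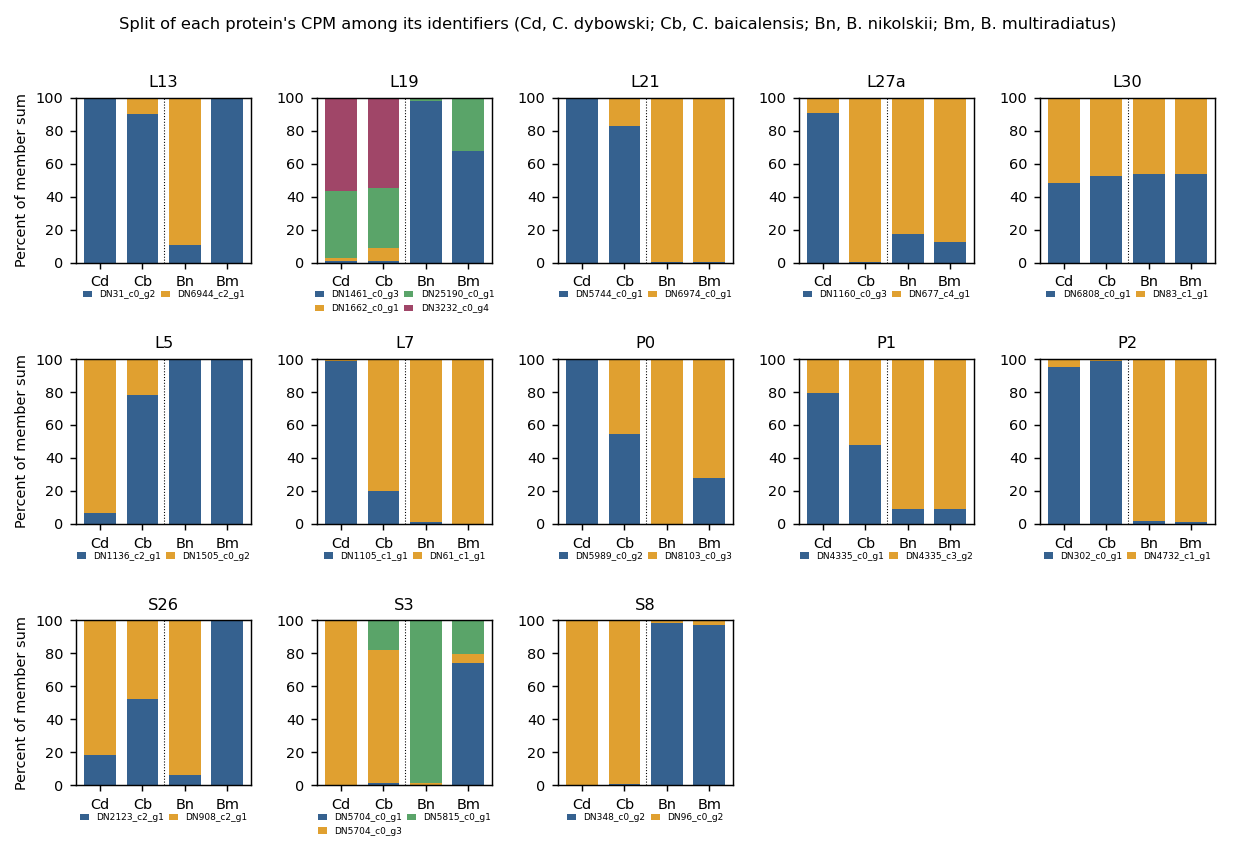
Percent of the summed CPM of each protein (vertical axis) held by each of its identifiers (colours) in the 4 libraries (bars), for the 13 proteins with at least 2 unmixed identifiers. DN1424_c0_g1, with the titles of S26 and L15, is left out. The colours change across the dotted line between the genera for S8, P2 and L21, while L30 keeps an even split in all libraries, and the bars of P0 in *C. baicalensis* and *B. multiradiatus*, of L5 and S3 in *C. baicalensis* and of P1 and S26 in both *Comephorus* libraries split sums under 10 CPM.

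In the 13 proteins with several unmixed identifiers, the identifier with most reads was not the same in all libraries for any protein. The L30 pair was close to an even split everywhere. Some leaders were decided within sums under 10 CPM. These were P1 and S26 in both *Comephorus* libraries, L5 and S3 in *C. baicalensis*, and P0 in *C. baicalensis* and *B. multiradiatus*. For 6 of the 13 (L19, L21, P0, P2, S3 and S8), no leading identifier of a *Comephorus* library led in a *Batrachocottus* library. In 5 of the 13 (L19, L21, L7, P2 and S8), at least 1 identifier had both *Comephorus* libraries above both *Batrachocottus* libraries while another had them below. Identifiers at similar levels in all libraries were not called by the authors and are not in the normalized tables. These counts were therefore shaped by that choice, and no share over other proteins was taken.

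Sums per protein were compared next, since several identifiers can carry the reads of 1 protein. Over the unmixed identifiers alone, the sums of L21 were 927 and 940.3 CPM in *C. dybowski* and *C. baicalensis*, against 970.5 and 961 CPM in *B. nikolskii* and *B. multiradiatus*. Those of S8 were 1497 and 1353 CPM, against 1539 and 1545 CPM, and those of L19 were 1685 and 1589 CPM, against 1426 and 1736 CPM. The differences of these sums were -0.05 ± 0.67, -0.12 ± 0.68 and 0.06 ± 0.68 on the log2 scale (SE), although single identifiers of these proteins differed by up to 8.83. In the 13 proteins with several identifiers, the median size of the difference was 5.29 over their 29 identifiers and 1.74 over their 13 sums.

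Over all 28 proteins, the sums were called higher in *Comephorus* for 5 (29.6% of the 734 rows of the summed table) and higher in *Batrachocottus* for 9 (23.0% of those rows) by limma. No call, on these sums or on any other row, held when either *Comephorus* library or that of *B. nikolskii* was left out. The sums with the largest differences in favour of *Comephorus* were those of L6, S27 and L11, each with 1 identifier. In favour of *Batrachocottus* they were P1 (-8.85 ± 0.72, SE, limma adjusted p = 0.013), S26 (-8.39 ± 0.69, SE, limma adjusted p = 0.013) and L36. The P1 sums were 1.63 and 3.02 CPM in *Comephorus*, against 1686 and 1326 CPM in *Batrachocottus*. Those of S26 were 6.98 and 8.64 CPM, against 3324 and 2617 CPM, without DN1424_c0_g1, which names S26 and L15. That identifier was at 4360 and 4562 CPM in *Comephorus*, against 40.6 and 732 CPM in *Batrachocottus*. Over every identifier with the title, the S26 sums were 4974 and 5269 CPM, against 3766 and 3391 CPM, and DN1424_c0_g1 held most of them in *Comephorus*.

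Many of these differences were not seen once every identifier with the protein's title was summed, including those with a second title. With the mixed identifiers the P1 sums were 2271 and 2238 CPM in *C. dybowski* and *C. baicalensis*, against 1845 and 1436 CPM in *B. nikolskii* and *B. multiradiatus*, a difference of 0.47 ± 0.69 (SE). The L30 sums were 2401 and 2471 CPM, against 2209 and 2097 CPM, and the L36 sums 2344 and 2099 CPM, against 1843 and 1719 CPM. All 3 proteins were lower in *Comephorus* by their unmixed identifiers and slightly higher in *Comephorus*, without passing the test, by all of their identifiers. P2 gave 3644 and 3777 CPM, against 2750 and 3174 CPM, so that its difference was 0.33 in place of -1.86. L18 gave 1228 and 1374 CPM, against 1631 and 1886 CPM. Its difference was -0.43 in place of -3.04 and did not pass (limma adjusted p = 0.59).

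Other proteins kept a difference or turned round. L34 was at 1840 and 1849 CPM over all its identifiers in *Comephorus*, against 688 and 605 CPM in *Batrachocottus*, and L15 at 4363 and 4568 CPM, against 779 and 1450.1 CPM, nearly all of it in *Comephorus* from the identifier that also names S26. Their differences were 1.51 and 2.07, in place of -6.34 and -7.15, and did not pass (limma adjusted p = 0.14 and 0.089). L27a turned round to -1.25, where its unmixed sum had been called higher in *Comephorus* at 4.48. L13a kept its direction, with sums of 95.6 and 46.7 CPM, against 463 and 585 CPM (-2.94 ± 0.78, SE, limma adjusted p = 0.042). L22 was further apart with its mixed identifier, at 11771 and 3971 CPM in *Comephorus*, against 992 and 61.4 CPM in *Batrachocottus* (4.78 ± 1.68, SE), and did not pass (limma adjusted p = 0.083).

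Of the 16 proteins with further titled identifiers, the difference was smaller with them for 12 and changed sign for 11. Its median size was 4.63 over the unmixed identifiers and 0.49 over all titled ones, and the number at least 4-fold apart was 11 and 3. The 12 proteins with no further titled identifier had a median of 4.04, and 8 of them were at least 4-fold apart. Over all 28 proteins, 19 unmixed sums were at least 4-fold apart (88.4% of the summed table), against 11 with every titled identifier (86.9% of that table). Under 2-fold apart were 5 against 12. Most other rows of these tables are single identifiers called between species, so their shares are not like for like with sums over several identifiers. With every titled identifier, the sums called by limma were 4 higher in *Comephorus* (28.3% of that table), L6, L11, S2 and S27, and 2 higher in *Batrachocottus* (22.6%), L13a and L22-like 1. Mixed identifiers were counted in full, with any reads of another protein included. DN1424_c0_g1 was counted in full for both S26 and L15, so the same reads enter both sums. S26 and L15 are among the 11 that changed sign, and their sums over the other titled identifiers were not tested. Identifiers of the count tables that the authors had not called between any species carry no title here. These, and called identifiers without a title, are in no sum.

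**Figure D3:**
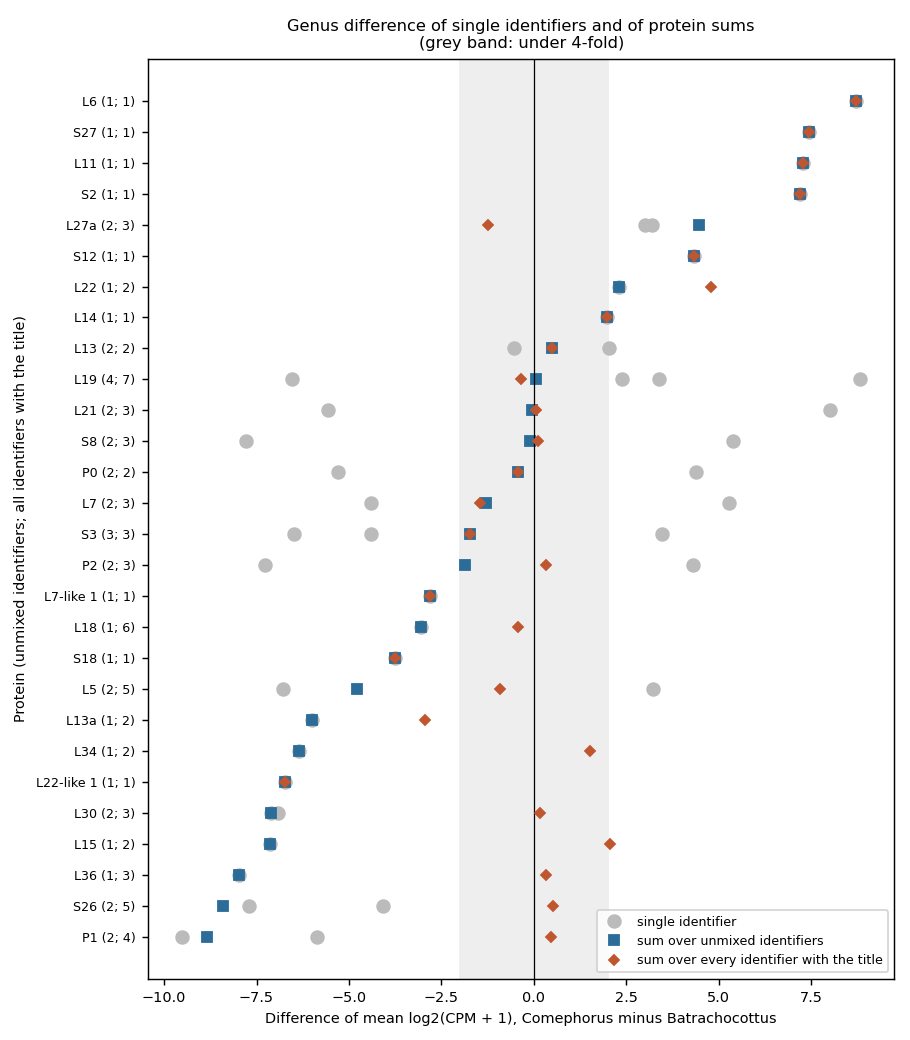
Genus difference of each of the 28 proteins (rows) on the log2(CPM + 1) scale, *Comephorus* minus *Batrachocottus*, for single unmixed identifiers (grey circles), their sum (blue squares) and the sum over every identifier with the title (orange diamonds). DN1424_c0_g1 enters the diamonds only, in full for both S26 and L15. The diamonds of P1, S26, L36 and L30 lie near 0 where their squares lie between -8.85 and -7.10. L6, S27, L11 and S2 have no further titled identifier, and identifiers without a title were not searched for these proteins.

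Within *Comephorus*, 7 of the 45 identifiers were at least 4-fold higher in *C. dybowski* (12.4% of all 792 identifiers were) and 4 were at least 4-fold higher in *C. baicalensis* (14.1% of all). With 1 library a species these are values without a test. The largest were in favour of *C. dybowski*: P0 (DN5989_c0_g2, 8.72 on the log2 scale), L5 (DN1505_c0_g2, 7.96) and S3 (DN5704_c0_g3, 7.63), for which *C. baicalensis* stood at the level of the benthic libraries or below it. L7 (DN61_c1_g1, -6.20), L21 (DN6974_c0_g1, -5.97) and L14 (DN1448_c1_g1, -4.95) were the largest in favour of *C. baicalensis*.

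Within *Batrachocottus*, the level in *B. nikolskii* exceeded that in *B. multiradiatus* at least 4-fold for 7 identifiers (17.0% of all) and was at least 4-fold below it for 6 (13.1% of all). The largest in favour of *B. nikolskii* were S26 (DN908_c2_g1, 9.95), P0 (DN8103_c0_g3, 8.44) and L13 (DN6944_c2_g1, 8.18). In favour of *B. multiradiatus* they were S3 (DN5704_c0_g1, -5.48), L19 (DN25190_c0_g1, -4.41) and the identifier of S26 and L15 (DN1424_c0_g1, -4.14).

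The subunits differed in where these within-genus differences lay. Between the *Comephorus* species 1 of 11 small subunit identifiers and 10 of 33 large subunit identifiers were at least 4-fold apart, against 26.5% of all identifiers. Between the *Batrachocottus* species 7 of 11 small and 5 of 33 large subunit identifiers were, against 30.2% of all. The median size of the difference between the *Batrachocottus* species was 3.43 over small and 0.35 over large subunit identifiers, and between the *Comephorus* species it was 0.39 and 0.79. These are counts over few identifiers that share proteins, S26 and S3 giving 4 of the 7, and the difference between subunits was not tested.

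**Figure D4:**
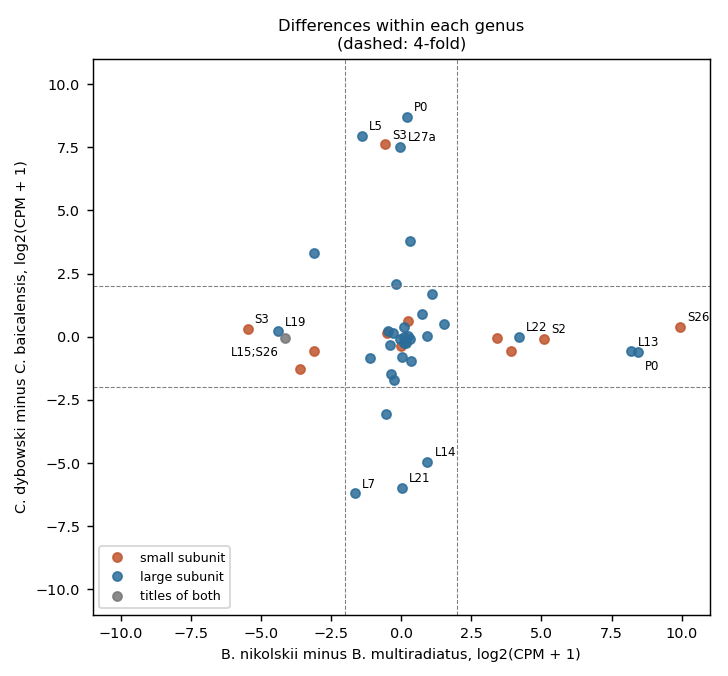
Difference between the species of a genus for each of the 45 identifiers on the log2(CPM + 1) scale, *B. nikolskii* minus *B. multiradiatus* on the horizontal axis and *C. dybowski* minus *C. baicalensis* on the vertical axis, coloured by subunit, with dashed lines at 4-fold. Identifiers far out on 1 axis mostly lie near 0 on the other, and 7 of the 11 small subunit identifiers lie beyond 4-fold on the horizontal axis, against 1 on the vertical axis.

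Summed by protein, 4 of the 28 sums were at least 4-fold higher in *C. dybowski* (L13, L5, P0 and S3) and 1 in *C. baicalensis* (L14). In *Batrachocottus*, the sums of L22, P0, S12 and S2 were higher by this measure in *B. nikolskii* (4 of 28) and that of S18 in *B. multiradiatus* (1 of 28). For these counts no share over all rows of the summed table was taken, so they do not show whether ribosomal proteins stand out. The S26 sums of *B. nikolskii* and *B. multiradiatus* were 0.34 apart on the log2 scale and those of L13 were 0.13 apart, where single identifiers of these proteins (DN908_c2_g1 and DN6944_c2_g1) were 9.95 and 8.18 apart. The P0 sums were 823 CPM in *C. dybowski* and 1.76 CPM in *C. baicalensis*, against 1072 CPM in *B. nikolskii* and 2.89 CPM in *B. multiradiatus*, with no further titled identifier. With every titled identifier L5 was no longer 4-fold apart between the *Comephorus* species, at 685 CPM in *C. dybowski* and 414 CPM in *C. baicalensis*.

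The ratio of the summed CPM of small to large subunit identifiers was taken within each library, without the identifier that names both. That identifier was at 4360 and 4562 CPM in *Comephorus*, against 40.6 and 732 CPM in *Batrachocottus*. The sums cover only proteins with unmixed identifiers called between species, so their ratio is not the balance of whole subunits. Small subunit identifiers summed to 8116 and 6382 CPM in *C. dybowski* and *C. baicalensis*, against 6248 and 4904 CPM in *B. nikolskii* and *B. multiradiatus*. Large subunit identifiers summed to 14956 and 8187 CPM in the *Comephorus* libraries, against 17389 and 16119 CPM in the *Batrachocottus* libraries. The small subunit was thus 35.2% and 43.8% of both sums together in *Comephorus*, against 26.4% and 23.3% in *Batrachocottus*. The log2 ratio of small to large averaged -0.62 ± 0.37 in *Comephorus* and -1.60 ± 0.17 in *Batrachocottus* (SD, n = 2 each). The difference of 0.98 had an exact two-sided permutation p of 0.333, the smallest that 2 libraries against 2 can give. Over every identifier with a cytosolic ribosomal protein title (22 small, 69 large) the order of the genera was reversed, with a log2 difference of -0.77. Small subunit identifiers then held 17.0% and 21.7% in *Comephorus*, against 29.4% and 28.3% in *Batrachocottus*. This set holds further identifiers, so the ratios over unmixed and over all identifiers are not measures of the same set. The 45 identifiers together summed to 27432 and 19131 CPM in *Comephorus*, against 23678 and 21755 CPM in *Batrachocottus*, so that the genera overlapped. Over every titled identifier they did not: the totals were 62988 and 43864 CPM in *Comephorus*, against 33685 and 30814 CPM in *Batrachocottus*. Of these totals, identifiers with a second title of another form gave 35556 and 24733 CPM in *Comephorus*, against 10007 and 9059 CPM in *Batrachocottus*. They were counted in full, with any reads of another protein included, in these totals and in the subunit shares over every identifier.

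**Figure D5:**
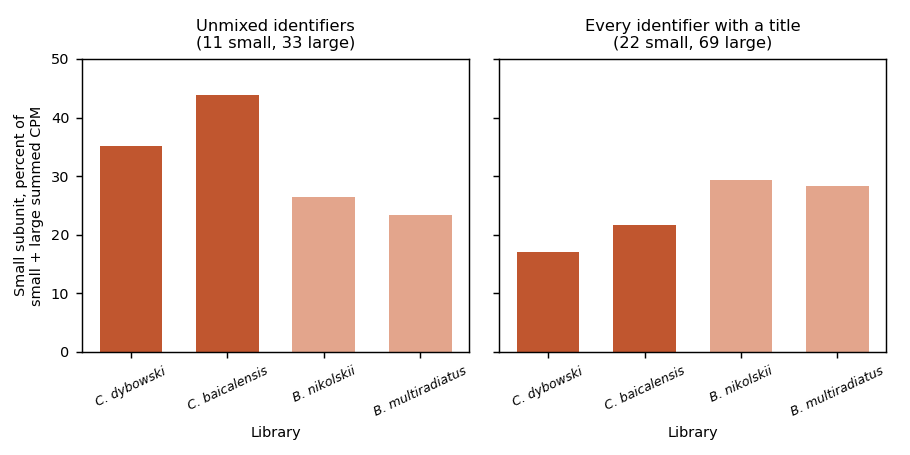
Small subunit share, in percent of the summed CPM of small and large subunit identifiers (vertical axis), in each library (bars; dark for *Comephorus*, light for *Batrachocottus*), over the 44 unmixed identifiers of a single subunit (left) and over every identifier with a cytosolic ribosomal protein title of a single subunit (right). The *Comephorus* bars are the taller ones on the left, at 35.2% and 43.8%, and the shorter ones on the right, at 17.0% and 21.7%.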

How the data were processed

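Muscle RNA of each species was sequenced as 1 pooled library. The authors trimmed reads with Trimmomatic 0.36, assembled each species with Trinity, joined the assemblies, clustered them with CD-HIT at 95% and estimated reads with Salmon. The deposited counts are whole-number Salmon estimates, listed for a genus only above about 1 CPM in both of its libraries, so an unlisted identifier is not shown to be at 0. The deposited CPM are counts scaled to a TMM-adjusted library size (edgeR 4.0.3), for the 792 identifiers that passed the authors' test between any of the species. A count of 3, the limit of a value of 0, came to 0.0441 to 0.0567 CPM per library, and no ribosomal identifier was at 0. *B. nikolskii* had an adjusted size 0.32 (log2) above its total count, the other libraries between -0.06 and -0.01.

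Titles came from the study's annotation table, read without its last 127 rows, and 657 of the 792 identifiers had a title. Identifiers were taken where all titles named a cytosolic ribosomal protein. Members and lists were chosen with earlier results of these data known. Genus differences were fitted with limma 3.58.1 on log2(CPM + 1) without a filter on low values, over the 792 identifiers and again after unmixed identifiers were summed by protein, and with edgeR 4.0.16 (quasi-likelihood, TMM) on counts of the 4755 identifiers listed for both genera (R 4.3.3), and tested on simulated data. Fold changes on this scale understate those of low values. P-values rest on the spread between the 2 species of a genus and on none within a species. The fits draw this spread in part from all identifiers of the table. A printed SE is therefore not the measured spread of its own row: the L21 sum has an SE of 0.67, with differences within the genera of -0.02 and 0.01. Named with values in every library were all identifiers of proteins with at least 2, the largest differences between and within genera, and the largest protein sums. Other members were named with fewer values, chosen after these were seen. Alternatives were pseudocounts of 0.1 and 10, filters, scaling to totals, DESeq2 1.42.0, other sets of identifiers and leaving out each library.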

Additional observations from a re-analysis of the deposited data

How the results depend on the processing

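Leaving out each library in turn gave 0 to 10 identifiers called higher in *Comephorus* and 0 to 16 called higher in *Batrachocottus* by limma, 0 to 9 and 0 to 11 by edgeR on counts, and 0 to 5 and 0 to 8 protein sums, with the lone library of a genus assumed to vary like the other genus. Of the named differences, only the 5 largest of single identifiers in each direction and the 3 largest of protein sums in each direction were refitted without each library, and these kept their sign. The number of protein sums at least 4-fold apart was then 20 to 22, and the subunit ratio differed by 0.71 to 1.24. On counts, DESeq2 called 13 identifiers higher in *Comephorus*, and setting unlisted identifiers to 0 gave 14 and 21 in edgeR for *Comephorus* and *Batrachocottus*, with more identifiers tested. Summing every identifier with a title lowered the protein sums called higher in *Batrachocottus* to 2 and those at least 4-fold apart to 11 (an alternative chosen after seeing the data), and reversed the subunit difference to -0.77. Sums per protein in place of identifiers gave 4 and 1 at least 4-fold apart within *Comephorus* (up in *C. dybowski*, up in *C. baicalensis*) and 4 and 1 within *Batrachocottus* (up in *B. nikolskii*, up in *B. multiradiatus*), of fewer items and with no share over all rows taken. The summed CPM was 62988 and 43864 in *Comephorus* (*C. dybowski* before *C. baicalensis*) and 33685 and 30814 in *Batrachocottus* (*B. nikolskii* before *B. multiradiatus*) over every titled identifier, and 27234 and 18364, against 29547 and 20978, when scaled to total counts, which moved the median genus difference of all 792 identifiers by -0.17. The cause of these shifts was not tested. A filter at 10 CPM in 1 library removed no identifier of the 792. The CPM were not whole multiples of 1 read (8.77% to 13.3% of values within 0.05 read), so the planned edgeR test on recovered reads was not run. No paired analysis was possible because the labels give no replicate numbers and each library is another species.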

Other observations

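Ribosomal proteins of mitochondria, which make the few proteins encoded by mitochondrial DNA, were named by 6 identifiers. Whether these identifiers carry other titles as well was not checked, and all of their reads were counted. By limma 1 was higher in *Comephorus* (30.1% of all 792 identifiers were) and 3 were higher in *Batrachocottus* (24.0% of all). Their median difference was -3.44 on the log2 scale, against 1.40 over all identifiers. Together they summed to 103 and 89.7 CPM in *C. dybowski* and *C. baicalensis*, against 1910 and 1887 CPM in *B. nikolskii* and *B. multiradiatus*. Identifiers that use the newer names of ribosomal proteins (8, of which 2 have no other title) were called higher in *Comephorus* for 4 and in *Batrachocottus* for 1, and summed to 2929 and 2737 CPM in the *Comephorus* libraries, against 4580 and 1928 CPM in the *Batrachocottus* libraries.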
